A study of Gossypium hirsutum with 18 samples.

Results

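NAC transcription factors are a plant family named after its founding proteins NAM, ATAF and CUC. The genes described here are those whose deposited description names a NAC domain or a NAC transcription factor and whose FPKM was at least 1 in 3 or more of the 18 libraries. FPKM is the number of fragments per kilobase of gene, scaled to library size, so it can be compared between genes. Of 70478 genes in the deposited table, 269 carried such a description and 165 of these reached that level. Among the other 104 genes, 31 had 0 counts in every library and 73 had some counts. Just outside the limit, 4 genes reached an FPKM of 1 in 2 libraries, and just inside it, 6 genes reached it in exactly 3. The 165 genes shared 35 descriptions, most of them names of Arabidopsis NAC proteins. By deposited position, 76 lay on chromosomes of the A subgenome, 67 on those of the D subgenome and 22 on scaffolds.

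NAC proteins bind DNA through a conserved domain near their N-terminus and activate or repress other genes through a variable C-terminal region. In Arabidopsis, some members promote leaf senescence and chlorophyll loss downstream of abscisic acid and ethylene, others delay it, and a set held at membranes is released by cleavage when mitochondria or the endoplasmic reticulum are disturbed. Further members set the thick walls of xylem vessels and fibres, and many respond to drought, salt, wounding or abscisic acid.

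The plant was upland cotton, Gossypium hirsutum, an allotetraploid with A and D subgenomes, raised as seedlings in soil and then moved into solution, and RNA was taken from root and leaf. The 6 groups were CK, labelled as untreated, and the treatments coded AS and SAS, each in root and in leaf with 3 libraries. By the labels, the solutions were 125 mM NaHCO3 and NaOH at equal pH, both for 12 h. The labels do not say which code is which, and they give neither the cultivar nor the age of the plants nor the solution and time of CK. The series set out to compare transcript levels under these kinds of alkaline stress.

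Total counts ran from 46345805 to 66843791 per library. A list of 40 leaf marker genes for antenna proteins and the small subunit of Rubisco summed to an FPKM of 16230 to 20860 in CK leaves and 602 to 653 in CK roots. In SAS leaves it summed to 4672 to 9652, below each CK leaf and each AS leaf (17080 to 18140), and its part in the changes of SAS leaves given below was not tested. In roots the same list summed to 330 to 515 in AS and 143 to 199 in SAS. A list of 150 genes described by root hairs, the Casparian strip or the UPF0497 family moved with the root NAC levels, summing to 1394 to 1507 in CK, 2093 to 2284 in AS and 2595 to 3452 in SAS roots, against 966 to 1062 in leaves, and 50 to 71 of its genes were at 0 in each root. The part of either list in the root changes was not tested. In these bulk samples, fewer cells of a type and less RNA per cell cannot be told apart. Whether replicate libraries stem from different plants is not recorded, so the p-values measure only the spread between these libraries, which may be technical.

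As a family, NAC transcripts summed to more in treated roots and treated leaves than in CK, with the smallest rise in AS leaves. Summed over the 165 genes, FPKM was 3108 ± 214 (SD, n = 3) in CK roots, 7482 ± 1195 in AS roots and 12740 ± 528 in SAS roots. In leaves it was 1666 ± 41.6 in CK, 2247 ± 135 in AS and 3722 ± 416 in SAS. Within each tissue, every SAS library lay above every AS library and every AS library above every CK library. Among AS roots, library 3 was lowest at 6134, against 8411 and 7902 in the others. The sum came to rest on fewer genes in treated roots, where the 10 most abundant members held 62.4% (AS) and 60.8% (SAS) of it, against 42.8% in CK roots. The number of members at an FPKM of 1 or more moved less, from 115 to 121 per CK root to 132 to 141 per SAS root.

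**Figure D1:**
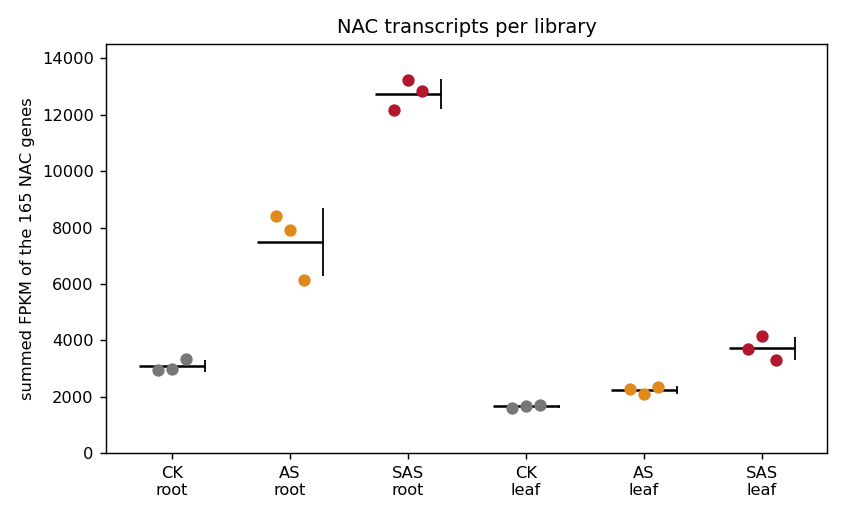
Summed FPKM of the 165 NAC genes in each of the 18 libraries (points), with the mean (horizontal line) and SD (vertical line) of each group of 3. The root groups rise from a mean of 3108 (CK) to 12740 (SAS), and the leaf groups from 1666 to 3722.

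Raw counts of single genes went into edgeR's quasi-likelihood test, and a gene was called when its adjusted p (Benjamini-Hochberg, over all genes tested) was under 0.05. In AS roots, 62 of 140 NAC genes tested rose and 17 fell against CK (56.4% called), where 38.0% of all 39584 genes were called and 21.0% were called higher. In SAS roots, 93 rose and 10 fell (73.6%), where 57.0% of all genes were called, 28.6% higher and 28.3% lower. Between the treatments, 72 were higher and 7 lower in SAS than in AS roots (56.4%), where 39.7% of all genes were called and 20.7% were called higher. The median log2 change of the members tested was 0.64 in AS roots, 1.73 in SAS roots and 0.79 between them, while the medians of all genes lay at -0.01, -0.06 and -0.02. AS and SAS were compared with the same CK libraries, so their counts are not independent.

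Root directions depended in part on the scaling. Scaling by library totals alone shifted the median of all root genes by -0.48 (AS) and -0.54 (SAS) on the log2 scale relative to the TMM scaling used for the tests, and FPKM carries the same shift. With library totals, 53 NAC genes rose and 33 fell in AS roots and 72 rose and 22 fell in SAS roots. With limma on log2(FPKM + 1), AS roots split into 50 and 34 and SAS roots into 75 and 22, and with log2(FPKM + 0.1) they were 53 and 35, and 75 and 22. Of all called genes under library totals, 24.4% were higher in AS roots and 28.6% in SAS roots. Root FPKM values, which are set on library totals, therefore show smaller rises and larger falls than the fitted changes, by about these shifts.

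In AS leaves, 22 of 142 NAC genes tested rose and 8 fell (21.1% called), close to the 20.7% of all 44761 genes called there (11.5% higher, 9.21% lower), with a median log2 change of 0.07. In SAS leaves, 89 rose and 19 fell (76.1%), where 53.2% of all genes were called and 27.2% were called higher, and the median was 0.76. Against AS leaves, 73 were higher and 5 lower in SAS leaves, where 40.0% of all genes were called, 20.7% higher and 19.3% lower. In each tissue, 5 of the members tested reached an FPKM of 1 in the libraries of a single group. Without them, 88 rose and 10 fell in SAS roots and 86 rose and 17 fell in SAS leaves.

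**Figure D2:**
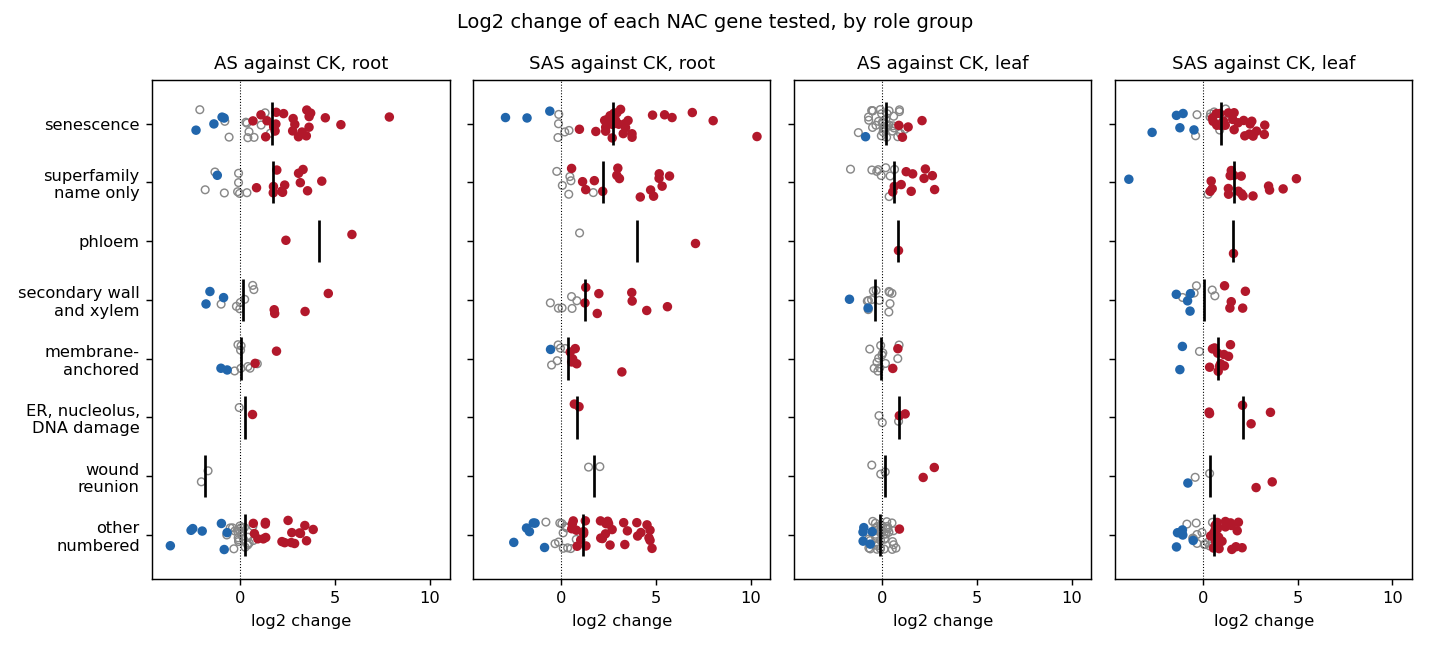
Log2 change against CK (horizontal axis) of each NAC gene tested, in rows by role group, for AS and SAS in root and leaf. Filled points were called (red higher, blue lower), open points were not, and the vertical bar marks the median of the row. In SAS roots the row of senescence names has its median at 2.75 and that of the superfamily name at 2.20, and in AS leaves most points are open.

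The senescence group held 41 members whose Arabidopsis namesakes promote or delay leaf senescence. In AS roots, 23 of 38 tested rose and 4 fell (median log2 change 1.69). In SAS roots, 30 rose and 3 fell (median 2.75). In leaves, 4 of 39 rose and 1 fell in AS (median 0.20), and 23 rose and 5 fell in SAS (median 0.96). Other genes named for senescence or chlorophyll breakdown gave 21 rises and 7 falls among 62 tested in AS roots, and SAS roots gave 39 and 10. In leaves that list gave 10 rises and 9 falls among 59 in AS and 25 and 14 in SAS. Of all genes tested, 38.0% were called in AS roots (21.0% higher) and 57.0% in SAS roots (28.6% higher). For leaves these shares were 20.7% (11.5% higher) in AS and 53.2% (27.2% higher) in SAS. The senescence group was thus called less often than all genes in AS leaves.

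Genes described as NAC-like, activated by AP3/PI, carry the name of Arabidopsis NAP, which promotes leaf senescence and chlorophyll breakdown in response to abscisic acid. All 7 of them rose in AS and in SAS roots, whereas in AS leaves 0 of 6 tested were called, and in SAS leaves 3 of 6 rose. The most abundant was Gh_D02G1270 (chromosome D02, 1062 bp), at an FPKM of 186, 218 and 260.5 in CK roots, then 1380, 1319 and 545 in AS roots, with 1141, 1128 and 1114 in SAS roots. Every treated root lay above every CK root, and AS root library 3 stood well below the other AS roots. The log2 change was 2.78 ± 0.38 (SE) in AS roots (adjusted p = 5.8e-04) and 2.88 ± 0.39 in SAS roots (adjusted p = 1.9e-04). In leaves the same gene lay far lower, at 7.36 to 11.1 in CK, 4.22 to 8.60 in AS and 8.93 to 31.5 in SAS, and neither treatment was called against CK (adjusted p = 0.289 and 0.0807). It was called higher in SAS than in AS leaves (1.70 ± 0.45, adjusted p = 0.0141, or 0.97 without SAS leaf library 2), and that call was lost without AS leaf library 1 or 3 (adjusted p = 0.0523 and 0.0541). Gh_A03G0887, a second gene of the name, behaved alike in roots, with 108, 130.3 and 155 in CK, then 1050, 976 and 353 in AS, with 699, 707 and 703 in SAS (log2 change 3.09 ± 0.42, adjusted p = 5.3e-04, and 2.96 ± 0.42, adjusted p = 2.6e-04). Gh_A12G1505 separated all 3 root groups, at 102.3 to 120.5 in CK, then 144 to 211 in AS, with 450.3 to 466 in SAS. It was also the member of this description with the largest change called in SAS leaves, from 10.5, 11.2 and 11.9 in CK to 28.2, 32.6 and 25.7 in SAS (log2 change 1.34 ± 0.12, adjusted p = 4.0e-05). Gh_Sca121194G01, at 174 bp the shortest gene model of the family, showed the same low AS root library 3 (168.5, against 455 and 479 in the others), and how the authors assigned reads that fit more than 1 gene model is not stated.

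All 7 genes named NAC 87 also rose in both treated roots, as did all 3 named NAC 61 and both named NAC 52. In Arabidopsis, ANAC087 takes part in programmed cell death of the root cap. The most abundant, Gh_D11G2467, stood at 95.8, 111 and 126 in CK roots, then 313, 298 and 282 in AS roots, with 483, 344 and 356 in SAS roots. No library of one root group overlapped another group, and the log2 changes were 1.89 ± 0.22 (adjusted p = 2.5e-04) and 2.36 ± 0.23 (adjusted p = 2.5e-05). Leaf values were lower, at 4.33 to 4.93 in CK, then 7.17 to 11.3 in AS, with 24.4 to 41.6 in SAS (log2 change of SAS 2.83 ± 0.23, adjusted p = 2.7e-05). Gh_A13G0828 reached more in AS than in SAS roots, at 10.6, 17.5 and 13.7 in CK, then 144, 135 and 98.1 in AS, with 92.95, 93.05 and 95.97 in SAS. Its log2 change was 3.65 ± 0.27 in AS roots (adjusted p = 2.4e-05) and 3.29 ± 0.26 in SAS roots (adjusted p = 9.5e-06), and the treatments did not differ by the test (adjusted p = 0.261). Of the 7 gene models, 3 are scaffold fragments under 500 bp whose reads may be shared with the longer ones.

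NAC 83 carries the number of Arabidopsis VNI2, a repressor of vessel formation that also delays leaf senescence. Its 13 members went different ways. In AS roots, 3 of 12 tested rose and 2 fell, and in SAS roots 7 rose and 0 fell, while in SAS leaves 7 of 13 rose and 2 fell. Among all genes tested, 38.0% were called in AS roots, 57.0% in SAS roots (28.6% higher, 28.3% lower) and 53.2% in SAS leaves. In roots, the share of NAC 83 genes called in either direction was near that of all genes. Gh_A03G1332 (chromosome A03) had 154, 141 and 139 in CK roots, then 61.4, 50.3 and 63.2 in AS roots, with 109, 88.7 and 75.4 in SAS roots. Its leaf values ran the other way, from 55.8, 64.0 and 58.9 in CK to 188, 126 and 174 in AS, with 280.4, 417 and 322 in SAS, which made it the most abundant NAC transcript of SAS leaves. The log2 change was -0.84 ± 0.16 in AS roots (adjusted p = 0.00292), 1.38 ± 0.20 in AS leaves (adjusted p = 0.00176) and 2.49 ± 0.20 in SAS leaves (adjusted p = 2.7e-05). In SAS roots it was not called (-0.13 ± 0.16, adjusted p = 0.503), although each SAS root lay below each CK root by FPKM. Gh_D02G1769 had the same shape, at 180 to 193 in CK roots, then 56.5 to 86.9 in AS roots, 61.2 to 71.8 in CK leaves and 177 to 271 in SAS leaves.

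Other NAC 83 genes rose in roots. Gh_A07G2132 went from 27.8, 14.7 and 19.4 in CK roots to 56.03, 42.99 and 61.07 in AS, with 175, 209 and 182 in SAS roots. Its namesake on D07, Gh_D07G2341, went from 15.5, 13.5 and 13.9 to 30.4, 31.8 and 43.3 and to 113.4, 127.3 and 102.6 (log2 change 1.77 ± 0.16, adjusted p = 6.2e-05, and 3.54 ± 0.17, adjusted p = 7.9e-07). In both genes all 3 root groups were apart. Gh_A04G0868 and Gh_D04G1368 were mainly leaf genes. The first stood at 110 to 134 in CK leaves and 176 to 224 in SAS leaves (log2 change 0.73 ± 0.13, adjusted p = 0.00117), and the second at 66.8 to 104 and 194 to 217 (1.18 ± 0.16, adjusted p = 2.5e-04).

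Arabidopsis JUB1, or ANAC042, is induced by hydrogen peroxide and delays senescence. Of the NAC 42 genes, 4 of 8 tested rose and 2 fell in AS roots, and 6 rose and 2 fell in SAS roots. For comparison, 38.0% of all genes were called in AS roots and 57.0% in SAS roots (28.6% higher, 28.3% lower). The NAC 42 genes were thus called more often than all genes in both. Their share called lower in SAS roots was near that of all genes. Genes with consecutive numbers on A08 and on a D08 scaffold gave several of the larger rises in SAS roots. Gh_A08G2057 stood at 3.03, 2.93 and 3.70 in CK roots, then 18.98, 14.46 and 15.46 in AS roots, with 66.2, 170.4 and 149.6 in SAS roots. The 3 groups were apart, with a log2 change in SAS roots of 5.86 ± 0.39 (adjusted p = 3.4e-06). Gh_D08G2671 followed with 2.75, 4.14 and 6.02, then 17.1, 13.5 and 16.1, then 71.8, 172 and 153 (5.47 ± 0.44, adjusted p = 9.0e-06). Gh_A08G2056 was near 0 in CK roots, with 15 counts in library 1 and 0 in the others, and reached 8.24, 24.6 and 24.1 in SAS roots. Its fitted log2 change of 8.03 ± 0.93 (adjusted p = 7.8e-05) was 7.43 without CK root library 2 and 13.18 without CK root library 1, so its size rests on those low counts. In leaves this gene fell, from 10.8, 9.58 and 8.34 in CK to 3.28, 2.89 and 6.49 in SAS (log2 change -1.21 ± 0.29, adjusted p = 0.00544). Gh_D08G2670 had 0 counts in all CK roots and was at least 62.4-fold higher in SAS roots, against a floor of 3 counts per library.

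Not every NAC 42 gene rose. Gh_D07G0802 fell from 11.7, 11.1 and 8.20 in CK roots to 1.75, 1.62 and 1.02 in AS, with 1.90, 3.70 and 0.566 in SAS roots. In leaves it rose from 1.68, 2.83 and 2.55 in CK to 12.6, 13.5 and 7.17 in SAS. Both root groups lay below CK and all SAS leaves above CK leaves, with log2 changes of -2.32 ± 0.53 (AS roots, adjusted p = 0.00786), -1.79 ± 0.52 (SAS roots, adjusted p = 0.0149) and 2.21 ± 0.28 (SAS leaves, adjusted p = 1.9e-04). Without SAS root library 2 the SAS root value was -2.53. Gh_A06G1947 and Gh_D06G2096, of the same name, were low in CK and AS roots and higher in SAS roots, the second at 1.27 to 2.75, 0.331 to 1.11 and 7.63 to 13.2. Against AS roots their log2 changes were 4.92 ± 1.20 (adjusted p = 0.0098, between 4.33 and 5.82 without AS root library 2 or 1) and 3.62 ± 0.47 (adjusted p = 5.2e-04).

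NAC 90, a repressor of salicylic acid responses and senescence in Arabidopsis, had 4 members. Gh_A09G0913 stood at 10.5, 14.8 and 17.5 in CK roots, then 80.2, 113 and 106 in AS roots, with 136, 147 and 116 in SAS roots (log2 change 3.27 ± 0.26, adjusted p = 3.4e-05, and 3.75 ± 0.27, adjusted p = 4.8e-06). In leaves it was near 1 in CK and AS and 7.91, 17.1 and 8.44 in SAS, the largest difference between SAS and AS leaves in the family (3.04 ± 0.39, adjusted p = 7.3e-04). Gh_Sca004760G01 was instead a leaf gene, at 3.44, 3.91 and 4.41 in CK, then 15.8, 13.9 and 23.9 in AS, with 50.7, 41.2 and 23.0 in SAS leaves. All treated leaves lay above CK leaves (log2 change 2.12 ± 0.31, adjusted p = 0.00183, and 3.26 ± 0.32, adjusted p = 5.1e-05). Gh_A04G0481 stood at 2.49, 0.709 and 2.94 in CK roots and 3.67, 4.95 and 4.77 in AS roots, while SAS roots held 0, 26 and 0 counts. It was lower in SAS than in AS roots (log2 change -4.53 ± 1.09, adjusted p = 0.00925), a size that became -10.89 without SAS root library 2, the only SAS root with counts.

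Genes with only the superfamily name, 23 members, included several of the most abundant NAC transcripts. In AS roots 12 of 21 tested rose and 1 fell, and in SAS roots 15 rose and 0 fell. In AS leaves 10 of 19 rose and 0 fell, and in SAS leaves 17 rose and 1 fell. Over all genes tested, the called shares were 38.0% in AS roots, 57.0% in SAS roots, 20.7% in AS leaves and 53.2% in SAS leaves. The superfamily group was called more often than all genes in each. With 10 of the 22 rises in AS leaves, this group held the largest number there. Their deposited gene ontology terms differ, and the genes are given by those terms. Genes for epoxycarotenoid dioxygenase, a rate-limiting enzyme of abscisic acid synthesis, gave 1 rise among 3 tested in AS roots and 3 among 3 in SAS roots, and in leaves 1 rise and 2 falls among 9 in AS and 3 and 4 in SAS.

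Gh_D01G0514 and Gh_A01G2064 carry the terms response to abscisic acid and response to water deprivation. Gh_D01G0514 (chromosome D01) had 35.7, 30.4 and 45.8 in CK roots, then 386.5, 302 and 263 in AS roots, with 951, 1083 and 1079 in SAS roots. Leaves showed the same order at lower levels, with 7.41, 9.13 and 13.1 in CK, then 71.8, 55.5 and 69.6 in AS, with 131, 132 and 68.0 in SAS. All treated libraries were above all CK libraries of their tissue, and SAS leaf library 3 lay within the range of AS leaves. The log2 changes were 3.56 ± 0.28 in AS roots (adjusted p = 2.9e-05), 5.34 ± 0.30 in SAS roots (adjusted p = 1.4e-06), 2.66 ± 0.29 in AS leaves (adjusted p = 6.9e-04) and 3.46 ± 0.30 in SAS leaves (adjusted p = 3.5e-05). Gh_A01G2064 stood at 39.6, 26.4 and 58.7 in CK roots, then 683, 694 and 398 in AS roots, with 826, 796 and 923 in SAS roots (4.32 ± 0.39, adjusted p = 6.9e-05, and 4.89 ± 0.41, adjusted p = 1.1e-05). As with the AP3/PI genes, AS root library 3 was the lowest of the AS roots. A further gene with these terms, Gh_D05G3474, was highest in AS roots, at 84.1, 99.9 and 104, with 23.0 to 52.6 in CK and 27.4 to 42.5 in SAS roots. It fell between AS and SAS roots (-1.42 ± 0.33, adjusted p = 0.00759), and its namesake Gh_A04G1303 was also above both other groups in AS roots.

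Gh_D04G0293 and Gh_A05G3310 carry the terms response to fungus, jasmonic acid, salicylic acid and wounding. Gh_D04G0293 (chromosome D04) was the most abundant NAC transcript of SAS roots, at 993, 1394 and 1247, from 61.4, 68.8 and 69.1 in CK and 181, 179.7 and 307 in AS roots. No group overlapped another, and the log2 changes were 2.20 ± 0.26 (adjusted p = 2.5e-04) in AS and 4.73 ± 0.29 (adjusted p = 2.1e-06) in SAS roots. In leaves it rose from 16.1 to 23.8 in CK to 48.2 to 64.4 in AS, with 57.9 to 100.1 in SAS. Gh_A05G3310 rose from 20.2, 27.6 and 28.3 in CK to 525, 778 and 612 in SAS roots (5.18 ± 0.33, adjusted p = 2.5e-06), and from 6.13 to 6.66 in CK leaves to 24.4 to 35.0 in AS leaves (2.22 ± 0.27, adjusted p = 9.1e-04).

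Gh_A06G1910, Gh_D06G0417, Gh_D02G0790 and Gh_A02G0749 carry the terms response to wounding and negative regulation of abscisic acid signalling. Gh_A06G1910 was abundant in both tissues, at 146, 89.6 and 149 in CK roots and 136, 126 and 113 in CK leaves, where it was the leading NAC transcript. It reached 432, 483 and 388 in AS roots, with 636, 681 and 788 in SAS roots, and 209, 194 and 216 in AS leaves and 334, 332 and 301 in SAS leaves. In each tissue the 3 groups were apart, with log2 changes of 2.25 ± 0.26 (AS roots, adjusted p = 2.4e-04), 3.0 ± 0.27 (SAS roots, adjusted p = 1.7e-05), 0.65 ± 0.12 (AS leaves, adjusted p = 0.00502) and 1.34 ± 0.12 (SAS leaves, adjusted p = 3.7e-05). Gh_A02G0749 started low, at 4.11, 5.98 and 4.50 in CK roots, and reached 36.04, 26.53 and 44.37 in AS, with 152, 197 and 183 in SAS roots (3.33 ± 0.24, adjusted p = 2.2e-05, and 5.73 ± 0.27, adjusted p = 7.3e-07).

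Gh_A09G0159 carries the terms root cap development and asymmetric cell division, yet it was mainly a leaf transcript here. It stood at 1.18, 1.32 and 1.07 in CK leaves, 10.3, 3.48 and 4.61 in AS leaves and 19.76, 33.39 and 14.96 in SAS leaves (2.29 ± 0.44, adjusted p = 0.0067, or 1.68 without AS leaf library 1, and 4.23 ± 0.47, adjusted p = 9.1e-05). Root levels were at most 3.11. Gh_A06G1226, for which the terms name no process beyond transcription, rose from 1.28, 0.825 and 1.57 in CK leaves to 14.5, 20.8 and 7.19 in SAS leaves (3.52 ± 0.51, adjusted p = 3.6e-04).

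**Figure D3:**
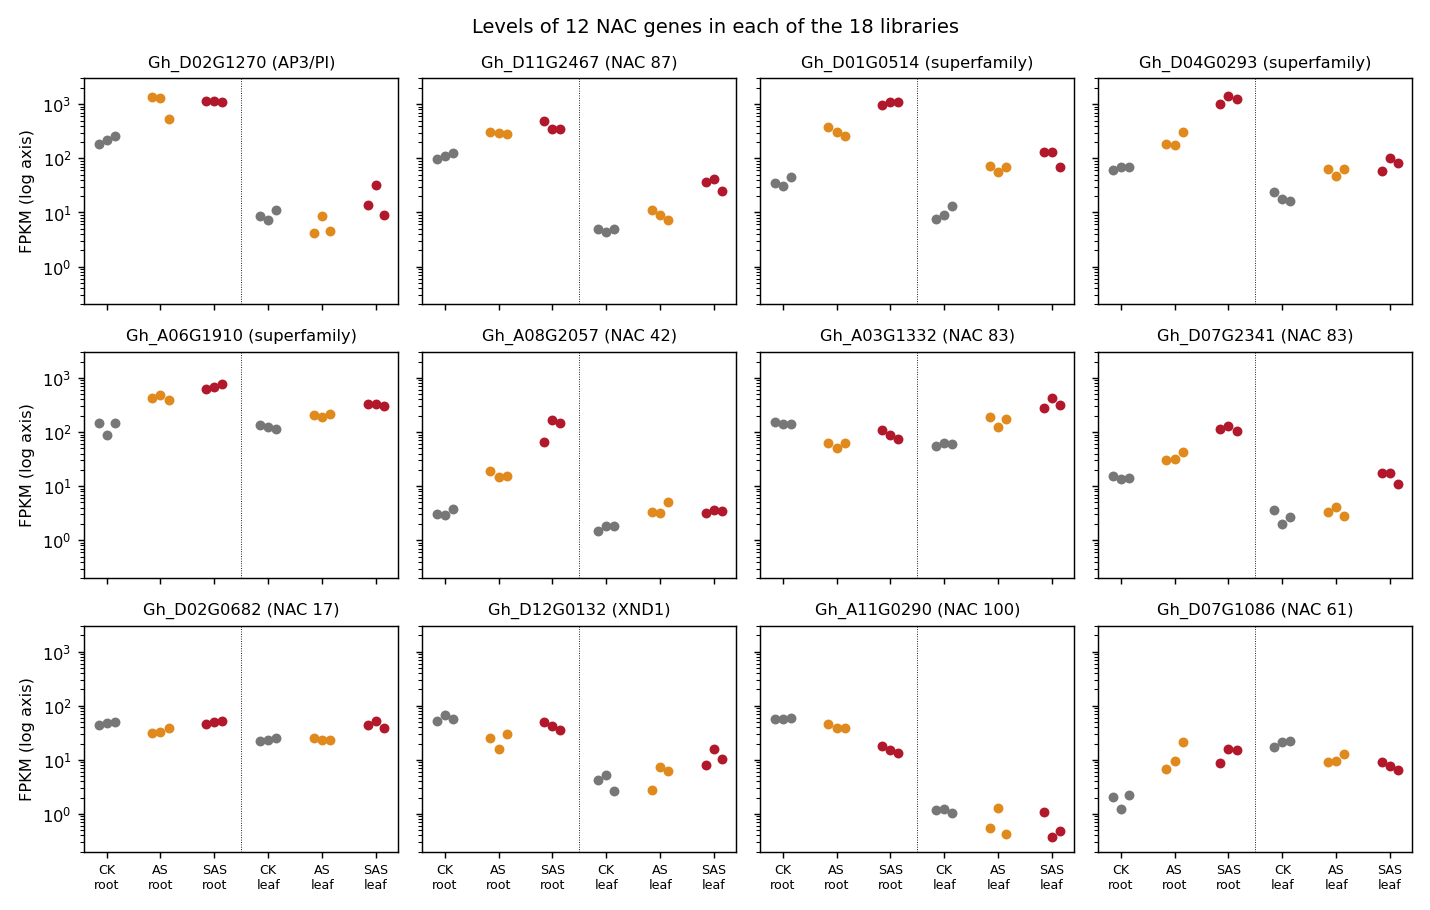
FPKM (log axis, the same in every panel) of 12 NAC genes in each library, 3 points per group, with root groups left and leaf groups right of the dotted line. Gh_D01G0514 climbs from CK to SAS in both tissues, Gh_A03G1332 lies lower in treated than in CK roots by FPKM (a change called in AS roots and not in SAS roots) and climbs in treated leaves, and Gh_A11G0290 falls from 55.73 to 59.96 in CK roots to 13.4 to 17.9 in SAS roots.

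NAC 17 is the number of Arabidopsis ANAC017, a membrane-held factor that is released when mitochondria are disturbed and activates alternative oxidase. Of the 4 cotton genes of that name, 0 were called in AS roots. Gh_D02G0682, the most abundant of the 4 over all 18 libraries though not in CK or AS roots, stood at 43.4, 46.9 and 49.2 in CK roots, then 31.9, 33.2 and 37.9 in AS roots, with 45.4, 49.1 and 52.7 in SAS roots. In SAS roots 2 of the 4 rose (by 0.57 and 0.62 on the log2 scale) and 1 fell, changes about as large as the scaling shift given above. The one that fell was Gh_A05G2095, at 56.1, 60.9 and 66.8 in CK roots, then 35.1, 33.6 and 40.5 in AS roots, with 30.2, 28.4 and 27.9 in SAS roots (log2 change -0.55 ± 0.15, adjusted p = 0.0115). In SAS leaves 4 of 4 rose, Gh_D02G0682 from 22.6, 23.3 and 25.7 in CK to 43.05, 52.0 and 38.6. Over the same comparisons, 8 of 8 alternative oxidase genes tested rose in AS roots and 8 of 8 in SAS roots, with median log2 changes of 2.29 and 4.01, and 5 and 6 of 8 rose in AS and SAS leaves.

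Of all 14 membrane-anchored members, 2 of 12 tested rose and 2 fell in AS roots (33.3% called, against 38.0% of all genes) and 6 rose and 1 fell in SAS roots (58.3%, against 57.0%), so these shares were near those of all genes. Their summed FPKM was lower in every treated root, at 224 to 252 in AS and 232 to 263 in SAS roots, than in CK roots (288 to 325), on a scale that carries the shift given above. In leaves 2 of 14 rose in AS (14.3%, against 20.7%), and 11 rose and 2 fell in SAS (92.9%, against 53.2%). The most abundant, Gh_D09G1773, is named NAC 62, in Arabidopsis a factor of defence and endoplasmic reticulum stress. Its call in SAS roots (adjusted p = 0.0496) was lost on leaving out any 1 root library other than SAS root library 3. It rose from 18.61, 27.88 and 37.01 in CK leaves to 58.8, 72.5 and 51.6 in SAS leaves (1.11 ± 0.24, adjusted p = 0.00315). In AS leaves, at 53.7, 44.95 and 58.3, its call was lost without CK leaf library 1 or 2 or AS leaf library 1 or 3 (0.84 ± 0.24, adjusted p = 0.0318, and between 0.0762 and 0.108 without them).

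Genes of the secondary wall and xylem group were split. In AS roots 4 of 14 tested rose and 3 fell (50.0% called, against 38.0% of all genes). In SAS roots 8 rose and 0 fell, a called share of 57.1% beside 57.0% of all genes, of which 28.6% were called higher. In SAS leaves 5 of 14 rose and 4 fell (64.3%, against 53.2%). Gh_A06G2028 is named NAC 73, in Arabidopsis SND2, an activator of secondary wall genes in fibres. It stood at 0.712, 1.25 and 2.45 in CK roots, then 23.6, 18.9 and 41.1 in AS roots, with 41.38, 54.01 and 56.91 in SAS roots. Treated roots were far above CK roots, with log2 changes of 4.66 ± 0.47 (adjusted p = 1.1e-04) and 5.62 ± 0.49 (adjusted p = 1.4e-05), or 5.28 and 6.24 without CK root library 3. Its namesake Gh_D06G1417 rose alike, from 2.60 to 4.13 in CK to 18.9 to 36.3 in AS, with 29.59 to 33.04 in SAS roots. Of 26 cellulose synthase and laccase genes tested in roots as a secondary wall list, 9 rose and 5 fell in each treatment, with medians of 0.38 (AS) and 0.05 (SAS). The called share of this list was above that of all genes in AS roots (38.0%) and below it in SAS roots (57.0%).

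XND1 represses vessel formation in Arabidopsis. Gh_D12G0132, its most abundant namesake, dipped in AS roots, at 52.3, 67.9 and 56.2 in CK, then 25.2, 15.6 and 29.8 in AS, with 49.6, 42.4 and 35.0 in SAS. All AS roots were below all others (log2 change against CK -0.86 ± 0.22, adjusted p = 0.0119, and of SAS against AS 0.92 ± 0.22, adjusted p = 0.00837). Gh_A12G0118 fell in AS roots as well, from 32.6, 47.6 and 36.8 to 14.4, 5.69 and 8.18 (-1.58 ± 0.30, adjusted p = 0.00313). Gh_D04G0278, of the same name, rose instead in roots, from 5.373, 9.166 and 6.502 in CK to 27.1, 17.8 and 8.78 in AS, with 66.1, 74.3 and 54.1 in SAS. It was lower in treated leaves, at 1.16, 0.991 and 1.17 in AS, with 1.57, 1.06 and 1.36 in SAS against 4.31, 3.80 and 2.35 in CK. The log2 changes were 1.83 ± 0.39 (AS roots, adjusted p = 0.00506), 3.74 ± 0.41 (SAS roots, adjusted p = 6.0e-05), -1.71 ± 0.29 (AS leaves, adjusted p = 0.00395) and -1.40 ± 0.29 (SAS leaves, adjusted p = 0.00264).

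Both phloem members rose in AS roots. Gh_D11G1074 is named NAC 45, in Arabidopsis a factor for loss of the nucleus in sieve elements. It was almost absent from CK roots, at 18, 0 and 19 counts, and stood at 7.32, 7.00 and 7.04 in AS roots, with 11.5, 21.5 and 13.1 in SAS roots. In leaves it rose from 7.30, 12.0 and 11.8 in CK to 29.5, 32.6 and 32.1 in SAS. The root log2 changes were 5.91 ± 0.65 (adjusted p = 1.8e-04) and 7.08 ± 0.67 (adjusted p = 2.3e-05), or 5.30 and 6.48 without CK root library 2. Gh_A13G1061, named NAC 20, was highest in AS roots, at 3.237, 7.997 and 2.462 against 0.845, 1.71 and 1.04 in CK (2.42 ± 0.51, adjusted p = 0.00492, or 1.67 without AS root library 2). Against AS roots it was lower in SAS roots (-1.44 ± 0.49, adjusted p = 0.0403), but without AS root library 2 this was -0.68 (adjusted p = 0.227).

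The group of endoplasmic reticulum, nucleolar and DNA damage stress held 5 members, with a summed FPKM of 49.1 to 58.5 in CK roots and 46.2 to 50.6 in CK leaves. NAC 44, which in Arabidopsis holds cells in G2 phase after DNA damage, had 2 members, and both rose in both leaf comparisons. The AS leaf call of Gh_A09G0294 (0.92, adjusted p = 0.0149) was lost without CK leaf library 1 or 2 or AS leaf library 3 (adjusted p between 0.0538 and 0.0595). Gh_D09G0298 stood at 1.49, 1.54 and 1.49 in CK leaves, 2.89, 3.63 and 4.67 in AS leaves and 9.22, 10.5 and 7.25 in SAS leaves, so that the 3 groups were apart (1.23 ± 0.21, adjusted p = 0.00392, and 2.54 ± 0.21, adjusted p = 2.9e-05). In roots both stayed at or below 1.11. The NAC 82 genes, named after a factor of nucleolar stress in Arabidopsis, were expressed in both tissues and rose in SAS roots, with log2 changes of 0.71 for Gh_D11G0608 (adjusted p = 0.00613) and 0.95 for Gh_A11G0524 (adjusted p = 0.00184). The first was also called in AS roots (0.61, adjusted p = 0.0199), a call lost without CK root library 1 or AS root library 1 or 2 (adjusted p between 0.0526 and 0.0737). Gh_D11G0608 stood at 27.88 to 32.96 in CK roots and 31.5 to 34.5 in AS roots, with 28.8 to 39.2 in SAS roots, so that the root groups overlapped by FPKM. In SAS leaves, Gh_D11G0608 went from 21.4 to 22.9 in CK to 27.3 to 29.1, and the log2 changes of both genes were smaller, at 0.33 and 0.35. Those leaf calls (adjusted p = 0.0146 and 0.019) were lost without CK leaf library 3 (0.0519 and 0.0727), and that of Gh_A11G0524 also without SAS leaf library 2 (0.0571). The difference between root and leaf response to SAS was called for both, at 0.61 (adjusted p = 0.0149) and 0.83 (adjusted p = 0.00457). Library totals as the scaling shifted the median of all genes by -0.70 in that comparison, so these differences are about as large as the shift. By mean FPKM, Gh_D11G0608 went from 30.4 to 34.1 in roots and from 22.25 to 28.4 in leaves. Gh_A11G0524 went from 21.5 to 28.5 in roots and from 22.1 to 28.6 in leaves. NAC 71 genes, which in Arabidopsis help cut stems to rejoin, were low, and 2 of 5 rose in AS leaves. One of these, Gh_A03G0024, went from 0.440, 0.308 and 0.894 in CK to 5.93, 2.65 and 3.27 in AS, with 10.6, 4.57 and 6.40 in SAS leaves (2.76 ± 0.47, adjusted p = 0.0038, and 3.66 ± 0.48, adjusted p = 2.2e-04). The AS leaf call of the other, Gh_D03G1627 (2.18, adjusted p = 0.016), was lost without CK leaf library 2 or 3 or AS leaf library 1 (adjusted p between 0.0587 and 0.0679). Among genes lower in SAS than in AS leaves, the naming rule gave Gh_D08G1721 and Gh_A08G1428, also named NAC 71. The call of the first (adjusted p = 0.0466) was lost on leaving out any 1 leaf library other than SAS leaf library 3, and that of the second (adjusted p = 0.0251) without AS leaf library 1 or 3 or SAS leaf library 1 or 2.

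The remaining numbered members were 58, of which 18 of 49 tested rose and 7 fell in AS roots and 31 rose and 6 fell in SAS roots. In leaves 1 of 45 rose and 5 fell in AS, and 25 rose and 6 fell in SAS. The shares of all genes called were 38.0% in AS roots, 57.0% in SAS roots, 20.7% in AS leaves and 53.2% in SAS leaves. This group was called less often than all genes in AS leaves and more often in the other treated groups. Gh_D06G0070, named NAC 28 and the most abundant of them, rose from 34.8, 34.4 and 38.6 in CK roots to 129, 121 and 109.5 in AS, with 141, 183 and 158 in SAS roots (2.21 ± 0.19, adjusted p = 5.0e-05, and 2.70 ± 0.20, adjusted p = 5.2e-06). NAC 36 genes, whose Arabidopsis namesake reduces plant size when overexpressed, rose in 6 of 7 cases in each treated root. Gh_A01G0013 of that name went from 0.974, 1.27 and 0.526 in CK to 5.50, 5.61 and 10.8 in AS, with 5.215, 16.04 and 10.41 in SAS roots (3.42 ± 0.48, adjusted p = 6.4e-04, and 4.04 ± 0.49, adjusted p = 1.1e-04). Gh_A07G1948, named NAC 74 after an Arabidopsis factor of cell death in stigma papillae, was low in CK and AS roots, at 0.415 to 0.863 and 0.637 to 1.37, and reached 12.7, 10.5 and 12.5 in SAS roots (4.64 ± 0.33, adjusted p = 4.7e-06).

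Falls were fewer. NAC 100 supplied 3 of the 10 falls in SAS roots. Gh_A11G0290 stood at 55.73, 57.34 and 59.96 in CK roots, then 46.1, 39.3 and 38.6 in AS roots, with 17.9, 15.1 and 13.4 in SAS roots, and Gh_D11G0347 at 16.1, 18.2 and 19.1, then 16.6, 17.4 and 17.6, then 3.67, 3.69 and 4.23. Both fell in SAS roots, by 1.36 ± 0.16 (adjusted p = 7.9e-05) and by 1.66 ± 0.16 (adjusted p = 2.8e-05) on the log2 scale, and were not called in AS roots (adjusted p = 0.986 and 0.0565). Gh_D09G0480, named NAC 58, fell in both, from 10.2, 8.84 and 6.29 in CK to 1.28, 0.991 and 0.907 in AS, with 0.728, 1.46 and 0.864 in SAS roots, by 2.49 ± 0.32 in each (adjusted p = 4.1e-04 and 1.5e-04).

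NAC 61 genes differed by tissue. Gh_D09G0943 rose in roots, from 1.01, 4.33 and 6.04 in CK to 30.6, 38.6 and 54.5 in AS, with 67.1, 82.6 and 59.9 in SAS (3.86 ± 0.54, adjusted p = 6.1e-04, and 4.70 ± 0.56, adjusted p = 9.2e-05). Gh_D07G1086 and Gh_A07G1009 rose in roots and fell in leaves. The first stood at 1.24 to 2.23 in CK roots, then 6.82 to 21.1 in AS roots, with 8.67 to 15.7 in SAS roots (3.19 ± 0.44, adjusted p = 5.6e-04, and 3.37 ± 0.44, adjusted p = 1.6e-04). In leaves it went from 16.96, 20.92 and 22.13 in CK to 9.10, 9.70 and 12.8 in AS, with 8.94, 7.83 and 6.46 in SAS (-1.0 ± 0.18, adjusted p = 0.00466, and -1.39 ± 0.18, adjusted p = 2.0e-04). Gh_A07G1009 fell in leaves by 0.96 ± 0.17 in AS (adjusted p = 0.00487) and by 1.08 ± 0.17 in SAS (adjusted p = 6.3e-04).

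Untreated roots and leaves already differed in their NAC genes. Of 165 genes tested, 80 were higher in CK roots and 48 in CK leaves (77.6% called), where 66.2% of all 48954 genes were called, 31.4% higher and 34.7% lower in root. Scaling by library totals shifted the median of all genes by -0.23 in this comparison. The AP3/PI and NAC 87 genes were root genes, with 6 of 7 and 7 of 7 higher in root. Gh_D02G1270, at 7.36 to 11.1 in CK leaves, differed by 4.86 ± 0.52 (adjusted p = 7.6e-07). All 10 NAC 36 genes and all 4 NAC 35 genes were higher in leaf. Gh_D06G1277, named NAC 35 after an Arabidopsis factor of flowering time and cold, had 0 counts in all CK roots and 6.34, 7.35 and 5.09 in CK leaves, at least 121-fold lower in root against a floor of 3 counts per library. Gh_A11G0290 was the reverse, at 1.02 to 1.25 in CK leaves (5.88 ± 0.38, adjusted p = 4.2e-09). No gene described as NAC 19 or NAC 32, linked to drought and abscisic acid in Arabidopsis, and none described as NAC 70, a root cap factor there, reached the level required of a member.

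Whether a gene answered a treatment differently in the 2 tissues was tested with an interaction term over 35697 genes that passed in both tissues. Of 119 NAC genes, the log2 change with AS was higher in root than in leaf in 55 and lower in 9 (53.8% called), where 35.2% of all genes were called, 18.5% and 16.7% by direction. Of the 55, 48 were called higher in AS roots and 7 were not called there, and 6 were called lower in AS leaves. For SAS the counts were 63 and 16 (66.4%), where 48.7% of all genes were called, 24.6% and 24.1%. Of the 63, 61 were called higher in SAS roots, 41 were called higher in SAS leaves too and 8 were called lower there. With library totals as the scaling the counts were 35 and 26 for AS and 47 and 31 for SAS, with a shift of the median of all genes of -0.59 and -0.70. With limma on log2(FPKM + 1) they were 34 and 29, and 46 and 36, and with log2(FPKM + 0.1) 35 and 30, and 46 and 32. Gh_A03G1332 (NAC 83) had an interaction of -2.39 ± 0.25 for SAS (adjusted p = 2.5e-06), and Gh_D07G1086 (NAC 61) one of 5.0 ± 0.50 (adjusted p = 1.4e-06).

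**Figure D4:**
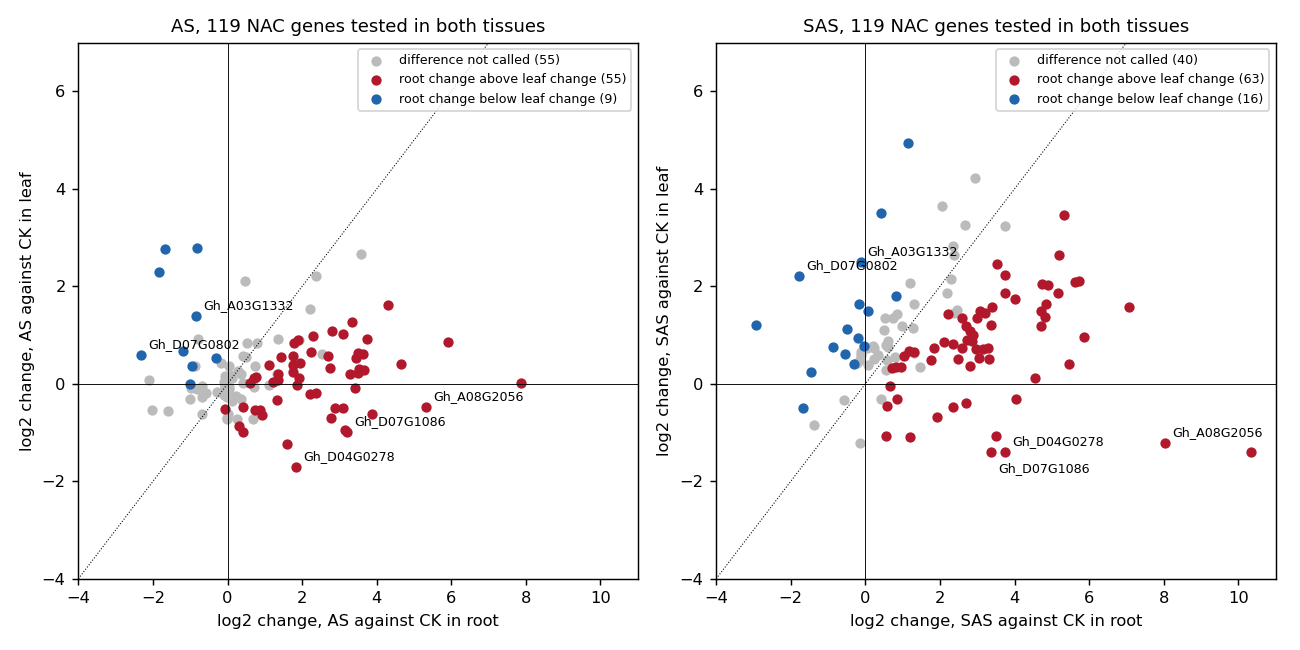
Log2 change against CK in root (horizontal) and leaf (vertical) for the 119 NAC genes tested in both tissues, for AS (left) and SAS (right). Each point is a gene, coloured by the call of the difference between its root and leaf change, and on the dotted line both changes are equal. Points below the line outnumber those above it among the called genes, 55 to 9 for AS and 63 to 16 for SAS, and the SAS point farthest right had 0 counts in CK roots, so that its position depends on the prior count.

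Ordered by treatment, 40 of 140 NAC genes (28.6%) had every CK root below every AS root and every AS root below every SAS root by TMM-scaled counts, an order that 9.28% of all genes tested showed. The opposite order was shown by Gh_D08G1370 alone (0.714%, against 6.71% of all genes). AS roots lay below both other groups in 17 genes (12.1%, against 6.12%), among them Gh_A03G1332, Gh_D02G1769, Gh_D12G0132 and Gh_A12G0118. In leaves, 18 of 142 genes (12.7%, against 7.08%) stepped upward from CK through AS to SAS, and 4 (2.82%, against 7.57%) stepped downward.

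Among the numbered chromosomes, 37 pairs of 1 A and 1 D gene shared a description and a chromosome number. In SAS roots 22 of these pairs were tested, and in 15 both genes rose, in 1 both fell and in 3 a single gene was called. In SAS leaves 31 were tested, with 17 rising together, 3 falling together and 8 with a single call. In all 9 comparisons, 0 pairs were called in opposite directions. The largest gap of any comparison, 10.0 on the log2 scale, was in CK root against leaf. It lay between Gh_A09G0159 (-1.25) and Gh_D09G0151 (8.77), and 9 of the 37 pairs had a single call there. Gh_A09G0159 was low in both groups, with a mean FPKM of 0.431 in CK roots and 1.19 in CK leaves. Gh_D09G0151 did not reach an FPKM of 1 in 3 libraries of either tissue and was not tested within root or leaf. The size of this gap therefore rests on genes near the floor. The widest gap in SAS roots was between Gh_A13G1439 and Gh_D13G1759, both named NAC 47, which reached 134 to 137 and 26.6 to 41.1 in SAS roots from 5.46 to 9.06 and 7.91 to 10.8 in CK roots. How reads shared by A and D copies were assigned is not stated, so a likeness within pairs can in part be shared reads.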

How the data were processed

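RNA of 18 libraries was measured by sequencing. Per the submitters' processing notes, HISAT and StringTie were used, with versions and settings not recorded there. The genome build, strandedness and the assignment of reads shared by A and D copies are not given in the sources used here. The deposited table holds the authors' raw counts per gene and their FPKM, in which a count of 0 is listed as 0.0001. Deposited counts of 1 to 20 were even in 56.1 to 59.8% of cases.

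From these counts, members were tested with edgeR 4.0.16 (R 4.3.3; TMM, quasi-likelihood test, Benjamini-Hochberg), fitted per tissue over 9 libraries on every gene that reached an FPKM of 1 in 3 or more of them, over 18 libraries for CK root against leaf, and as an interaction for responses by tissue. FPKM was used for levels and, with limma 3.58.1 on log2(FPKM + 1) and log2(FPKM + 0.1), for alternatives, as were DESeq2 1.42.0, other scalings and filters, a replicate block and leaving out each library. Replicates differed in every pair. The script was tested on simulated data. None of the gene IDs matched the RefSeq table given, so no sequences are printed.

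Members, role groups and lists were chosen with earlier results of these data known. Genes were named where they were called, with groups that did not overlap and a mean FPKM of at least 5 in the higher group, among the 5 largest rises and 3 largest falls of a comparison (4 each way for CK root against leaf, 3 for responses by tissue), the 5 most abundant of a tissue, the most abundant of a role group, or any of a role group of at most 6. Genes named outside that rule, such as Gh_A12G1505, Gh_D11G2467, Gh_D02G1769, Gh_A07G2132, Gh_D08G2670 and the NAC 17 genes, were chosen after their values were seen.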

Additional observations from a re-analysis of the deposited data

Results flagged for a closer look

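The responses of NAC genes differed between root and leaf by the interaction test (edgeR's quasi-likelihood test, Benjamini-Hochberg) in 64 of 119 genes for AS and 79 for SAS, and the genes named by size are given here as log2 differences of root minus leaf response.

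For AS, the response was higher in root for Gh_A08G2056 (NAC 42) by 5.88, for Gh_D11G1074 (NAC 45) by 5.12 and for Gh_D09G0943 (NAC 61) by 4.55. It was lower in root for Gh_A09G0159 (-4.08), Gh_D06G1546 (-3.52) and Gh_D07G0802 (NAC 42, -2.84). Without CK root library 1 the value of Gh_A08G2056 was 11.38, and without AS root library 3 that of Gh_A09G0159 was -10.19, in groups with counts at or near 0. Without CK leaf library 3 that of Gh_D06G1546 was -4.63.

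For SAS, the response was higher in root for Gh_A08G2056 by 9.48 (14.97 without CK root library 1), for Gh_D11G1074 by 5.74 and for Gh_D04G0278 (the XND1 name) by 5.36. It was lower in root for Gh_A04G0481 (NAC 90, -3.91, or -10.69 without SAS root library 2), Gh_D07G0802 (-3.76, or -4.52 without SAS root library 2) and Gh_D06G1546 (-3.53, or -4.63 without CK leaf library 3). Without CK root library 2 the AS and SAS values of Gh_D11G1074 were 4.51 and 5.14.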

How the results depend on the processing

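Of the named changes followed through the alternatives, none changed sign, but that check did not cover every named call. Gh_D09G1773, called higher in SAS roots, had a mean FPKM of 31.4 there and 32.5 in CK roots. The counts of NAC genes called in either direction stayed within 1.5 times under each alternative except the stricter filter (FPKM of at least 5). There, 41 (AS) and 51 (SAS) genes were called for the difference between root and leaf response, with fewer genes tested. Separate counts of rises and falls were less stable. Under the alternatives 25 of them moved by more than 1.5 times and 113 did not. On leaving out 1 library, 16 moved by that much and 200 did not. Leaving out 1 library at a time gave 71 to 81 called genes for AS roots, 95 to 104 for SAS roots, 62 to 81 for SAS against AS roots, 20 to 37 for AS leaves, 89 to 110 for SAS leaves, 62 to 86 for SAS against AS leaves, 123 to 132 for CK root against leaf, and 51 to 64 (AS) and 72 to 80 (SAS) for the responses by tissue. In AS leaves, 18 of 30 calls were kept whichever library was left out, and in AS roots 67 of 79. Same-numbered libraries did not deviate together (r from -0.132 to 0.126). With the replicate block 75 genes were called in AS roots (main 79), 98 in SAS roots and 28 in AS leaves (30). Differences of few reads were not detectable at this depth, and the 3 libraries per group limit the precision.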
